A study of Mus musculus with 10 samples.

Results

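The immediate early transcription factors examined here are 10 genes, namely Fos, Fosb, Jun, Junb, Atf3, Egr1, Egr3, Nr4a1, Ier2 and Dusp1. They were taken by gene name from the deposited table and read over all of its libraries. All 10 were found among the 26360 genes listed, and none of them stood at 0 in any library. Of the 10, 8 reached a mean of 1 CPM (reads scaled to a library of fixed size) and entered the main test, whereas Fosb and Egr3 lay under it and were tested in a fit with no filter.

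The samples were RPE/choroid/sclera, the pigmented epithelium, vascular layer and collagenous coat behind the retina, from 5 wild type C57BL/6J mice at postnatal day 34, with a right-eye library (n = 5) and a left-eye library (n = 5) from each animal. All 5 animals wore a -20 D lens over 1 eye for 10 days from postnatal day 24, and the fellow eye wore none. The labels name the side of each library but not the side of the lens, so that neither group is the treated one and the sign of a right minus left difference carries no treatment direction. Nothing in the labels marks a batch. The extraction protocol in the labels speaks of retinae, while the tissue field names RPE/choroid/sclera.

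Immediate early genes are transcribed within minutes of a stimulus from factors that already sit in the cell, without new protein synthesis. Growth factors, calcium, stretch and stress reach them through MAP kinases, which act on the serum response factor with its ELK partners and on CREB at the cyclic AMP response element (CRE). Their products in turn switch later genes on, and their RNA is short-lived. In the chick retina, Egr1 (there called ZENK) is known as a gene whose protein in amacrine cells follows the sign of defocus.

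Promoter windows from RefSeq (build GRCm38.p6, 250 bases before to 50 after the annotated start) were at hand for 7 of the 10 members. The windows of Fos, Dusp1 and Atf3 are shown because they hold CRE letters, and that of Junb because its levels ran most closely with those of Fos without them. Each reads 5′ to 3′ on the gene's strand, with TGACGT on either strand and TATAAA in capitals.
Fos, chr12:85473640-85473939, plus strand: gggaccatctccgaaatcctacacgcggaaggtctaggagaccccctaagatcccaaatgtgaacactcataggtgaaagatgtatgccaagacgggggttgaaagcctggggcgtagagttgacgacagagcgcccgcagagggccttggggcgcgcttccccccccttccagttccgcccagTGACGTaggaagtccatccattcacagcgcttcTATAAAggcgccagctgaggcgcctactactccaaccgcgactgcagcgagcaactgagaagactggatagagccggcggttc
Dusp1, chr17:26508423-26508722, minus strand: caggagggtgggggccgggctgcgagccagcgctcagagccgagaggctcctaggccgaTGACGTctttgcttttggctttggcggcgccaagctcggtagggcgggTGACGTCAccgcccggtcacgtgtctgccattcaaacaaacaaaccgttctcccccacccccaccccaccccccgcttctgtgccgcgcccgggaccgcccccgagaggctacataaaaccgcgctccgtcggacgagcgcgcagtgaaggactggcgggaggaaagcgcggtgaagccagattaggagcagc
Atf3, chr1:191183284-191183583, minus strand: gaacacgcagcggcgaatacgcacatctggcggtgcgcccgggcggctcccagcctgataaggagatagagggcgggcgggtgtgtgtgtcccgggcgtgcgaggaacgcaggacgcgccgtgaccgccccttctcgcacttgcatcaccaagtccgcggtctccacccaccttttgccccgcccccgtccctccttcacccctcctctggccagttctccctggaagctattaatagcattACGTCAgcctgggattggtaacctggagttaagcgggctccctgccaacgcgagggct
Junb, chr8:84978699-84978998, minus strand: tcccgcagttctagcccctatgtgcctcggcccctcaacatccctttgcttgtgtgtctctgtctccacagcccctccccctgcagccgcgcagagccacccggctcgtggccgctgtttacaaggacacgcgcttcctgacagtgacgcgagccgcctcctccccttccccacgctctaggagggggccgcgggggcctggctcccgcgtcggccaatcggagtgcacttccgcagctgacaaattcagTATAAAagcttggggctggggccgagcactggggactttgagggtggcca

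The letters TGACGT, the first 6 bases of the CRE, were found on at least 1 strand in 3 of the 7 windows and in 7.51% of the 32851 windows of this length in the RefSeq table. The Fos match starts 66 bases before the annotated start, ahead of a TATAAA 33 bases before it. Dusp1 holds TGACGT 191 bases before its start and the whole palindrome TGACGTCA 143 bases before it, which contains TGACGT on both strands, and TGACGTCA occurs in 1.79% of all windows. In Atf3 the match lies on the opposite strand 8 bases before the start. The AP-1 letters TGANTCA (7.81% of all windows) and the serum response element known as the CArG box (1.63%) were in none of the 7, which says only that these letters are not within this stretch. TATAAA was in 2 of the 7 (Fos, and Junb at its annotated start itself) and in 13.6% of all windows, and the GC box GGGCGG in 6 of the 7 and in 35.7%, each counted on both strands. The windows of Atf3, Dusp1 and Nr4a1 lie inside the longer gene span of the deposited table, which starts further upstream. For Junb the deposited span starts downstream of the RefSeq start, at 84978718 on the minus strand, so its TATAAA lies before that start.

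Fos encodes the founding member of the FOS proteins, which bind DNA as AP-1 only when paired with a JUN protein (chromosome 12, 85473890 to 85477273, plus strand, GRCm38). In the right eyes of animals 61, 64, 65, 66 and 68, Fos was at 8.84, 3.75, 7.38, 4.65 and 3.26 CPM, against 10.0, 7.50, 6.07, 9.45 and 5.17 CPM in the left eyes of the same animals. The right eye was the lower one in 4 animals and the higher one in animal 65, and the ranges of the groups overlapped. The mean was 5.58 ± 2.42 CPM in right and 7.65 ± 2.10 CPM in left eyes (SD, n = 5 each). The log2 difference, right minus left, was -0.50 ± 0.19 (SE, 95% interval -0.94 to -0.05), and it did not pass the adjusted threshold of 0.05 (limma, adjusted p = 0.9998).

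Fosb, the close relative of Fos whose product accumulates under repeated stimulation in brain (chromosome 7, 19302696 to 19310051, minus strand), was far less abundant. Its levels were 0.399, 0.579, 0.658, 0.765 and 0.329 CPM in the right eyes of animals 61 to 68 in the same order, against 1.01, 0.803, 0.943, 2.06 and 0.478 CPM in the left eyes. The right eye was lower in 5 of 5 animals, although the groups overlapped, and animal 68 was low on both sides. The implied read numbers ran from 30 to 138 per library, 30 being the fewest of any member in any library. The mean was 0.546 ± 0.181 CPM in right and 1.06 ± 0.597 CPM in left eyes (SD, n = 5 each), and the log2 difference was -0.66 ± 0.19 (SE, limma without a filter, adjusted p = 0.9999).

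Jun encodes the partner that lets FOS proteins bind DNA and can also pair with itself (chromosome 4, 95049034 to 95052222, minus strand). It had 14.1, 14.7, 16.9, 16.3 and 12.9 CPM in right eyes, against 14.8, 17.2, 11.9, 19.6 and 18.05 CPM in left eyes. Its highest and lowest libraries were both left eyes, and the right eyes lay between them. The mean of 15.0 ± 1.61 CPM in right eyes and 16.3 ± 3.01 CPM in left eyes (SD, n = 5 each) gave a log2 difference of -0.10 ± 0.13 (SE), within the spread between animals. It was -0.25 without animal 65 and -0.01 without animal 68. A noncoding antisense gene, Junos, shares 232 exon bases with Jun on the other strand at 0.348 CPM on average.

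Junb encodes a JUN protein that is a weaker activator than JUN and can restrain it (chromosome 8, 84974484 to 84978718, minus strand). It had 6.54, 4.18, 5.59, 4.57 and 3.09 CPM in right eyes, against 7.45, 6.37, 4.30, 10.2 and 4.70 CPM in left eyes. As with Fos, animal 65 alone had the higher level on the right, and the left eye of animal 66 stood at more than any other library. The mean was 4.79 ± 1.32 CPM in right and 6.61 ± 2.38 CPM in left eyes (SD, n = 5 each), a log2 difference of -0.42 ± 0.19 (SE, 95% interval -0.88 to 0.04). Prdx2, at 52.5 CPM, shares 173 exon bases with Junb on the opposite strand, and since the sources used here do not say whether strand was used in counting, part of the Junb value is uncertain.

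Atf3 encodes a stress-induced bZIP protein that can repress as well as activate (chromosome 1, 191170296 to 191218039, minus strand). It had 2.13, 1.38, 1.29, 1.84 and 1.20 CPM in right eyes, against 2.20, 1.80, 1.36, 2.48 and 1.83 CPM in left eyes. The right eye was lower in 5 of 5 animals, by little in animals 61 and 65, and the groups overlapped. The mean was 1.57 ± 0.399 CPM in right and 1.93 ± 0.427 CPM in left eyes (SD, n = 5 each), a log2 difference of -0.27 ± 0.13 (SE, 95% interval -0.57 to 0.02).

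Egr1 encodes a zinc finger factor that binds GC-rich sites. It had 10.2, 5.15, 6.49, 4.56 and 3.53 CPM in right eyes, against 12.9, 6.23, 6.63, 8.04 and 4.21 CPM in left eyes. Both eyes of animal 61 stood above all other libraries, and both eyes of animal 68 stood at the low end. Within each of the 5 animals the right eye was the lower one, with a log2 difference of -0.03 in animal 65 and of -0.79 in animal 66, and the ranges of the groups overlapped. The mean was 5.98 ± 2.57 CPM in right and 7.60 ± 3.25 CPM in left eyes (SD, n = 5 each), and the log2 difference was -0.33 ± 0.11 (SE, 95% interval -0.59 to -0.07; limma, adjusted p = 0.9998).

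Egr3, a related factor that calcium signals induce (chromosome 14, 70077203 to 70082614, plus strand), had 0.519, 0.469, 0.718, 0.731 and 0.700 CPM in right eyes, against 0.757, 0.789, 0.824, 0.493 and 0.764 CPM in left eyes. Animal 66 went against the other 4, its left eye being the lowest of the left eyes. The means of 0.627 ± 0.124 CPM in right and 0.725 ± 0.132 CPM in left eyes (SD, n = 5 each) differed by -0.16 ± 0.19 on the log2 scale (SE, fit with no filter), and by -0.30 without animal 66 and -0.06 without animal 64. It rested on 33 to 72 implied reads per library.

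Nr4a1 (Nur77) encodes an orphan nuclear receptor that binds DNA without a ligand (chromosome 15, 101254269 to 101274795, plus strand). It had 11.7, 6.20, 16.2, 11.9 and 5.11 CPM in right eyes, against 11.7, 11.3, 11.7, 10.5 and 8.08 CPM in left eyes. The right eyes spread over more than the whole range of the left eyes, with the highest library in animal 65 and the 2 lowest in animals 64 and 68. The right eye was lower in 2 of 5 animals and higher in animals 61, 65 and 66, in animal 61 by a log2 difference of 0.0025. The mean was 10.2 ± 4.55 CPM in right and 10.6 ± 1.52 CPM in left eyes (SD, n = 5 each), and the log2 difference was -0.17 ± 0.19 (SE, 95% interval -0.62 to 0.28).

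Ier2 encodes a small nuclear protein induced together with Fos (chromosome 8, 84661331 to 84662854, minus strand). Its levels were 3.13, 2.45, 3.53, 2.95 and 2.11 CPM in right eyes, against 2.68, 2.80, 3.03, 3.32 and 2.28 CPM in left eyes. The right eye was lower in 3 of 5 animals, and the means were nearly equal, at 2.83 ± 0.559 CPM in right and 2.82 ± 0.388 CPM in left eyes (SD, n = 5 each). The log2 difference was -0.0043 ± 0.11 (SE, 95% interval -0.26 to 0.25).

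Dusp1, which is a phosphatase and not a transcription factor despite the name of the group, removes phosphate from the MAP kinases that induce the other members and so closes a feedback loop (chromosome 17, 26505590 to 26562128, minus strand). It had 18.5, 12.7, 21.5, 18.2 and 8.85 CPM in right eyes, against 18.9, 17.1, 19.7, 21.4 and 11.99 CPM in left eyes. Animal 68 was lowest on both sides, the right eye was lower in 4 of 5 animals, and the groups overlapped. Ergic1, on the opposite strand, shares 11 exon bases. The mean was 15.9 ± 5.09 CPM in right and 17.8 ± 3.62 CPM in left eyes (SD, n = 5 each), a log2 difference of -0.20 ± 0.09 (SE, 95% interval -0.42 to 0.02).

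**Figure D1:**
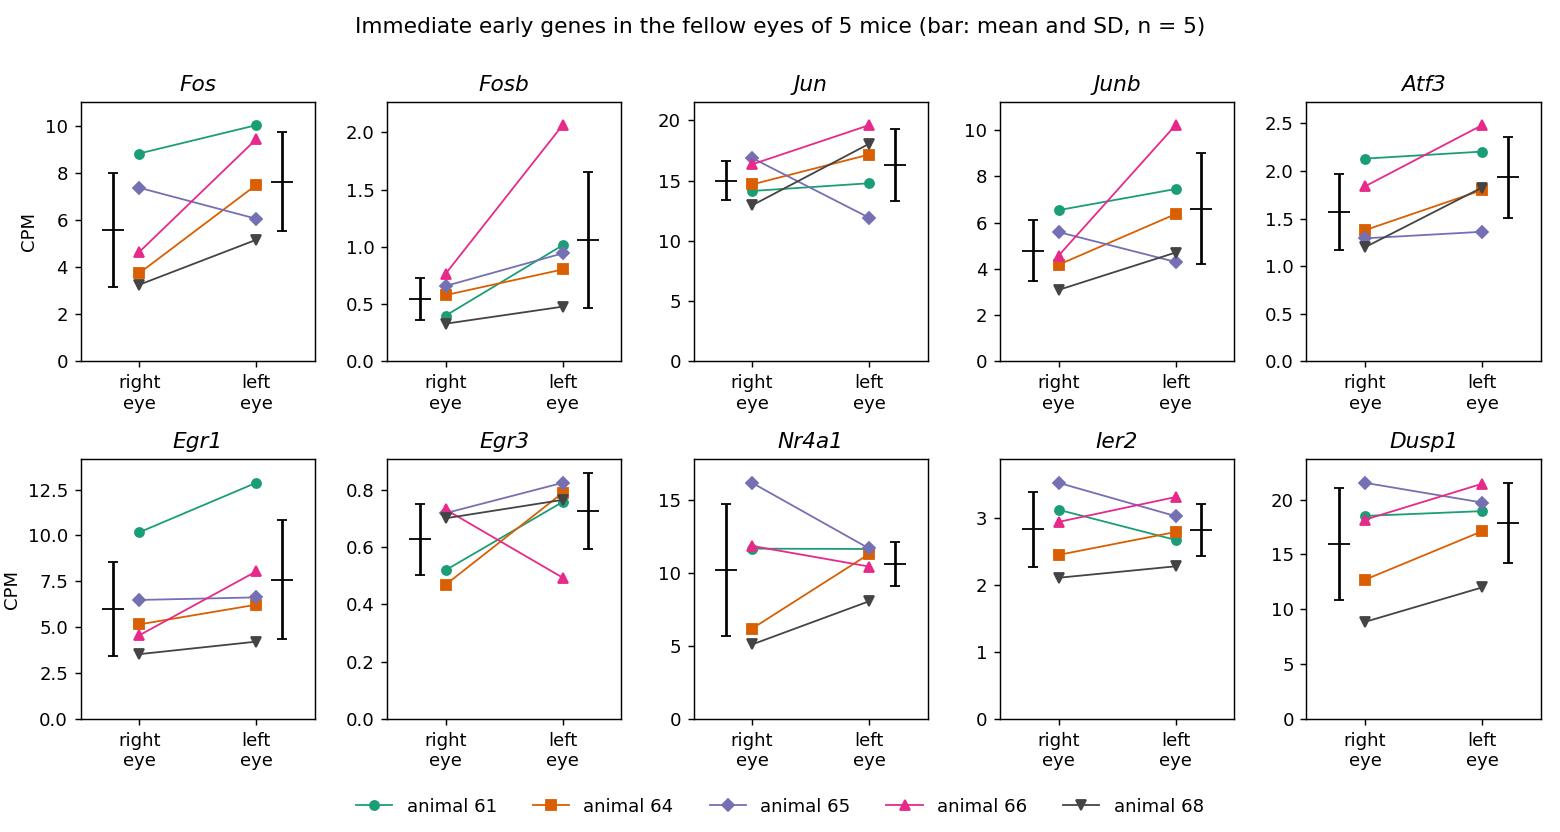
CPM of the 10 members in right and left eyes, 1 line per animal, with the mean and SD of each side (n = 5) as a bar beside the points. Most lines are lower on the right, and the lines of animal 65 often slope the other way. Animal 68 is the lowest on both sides for Fos, Fosb, Egr1, Nr4a1, Ier2 and Dusp1.

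The members differ in abundance as well as in spread. Counted per kilobase of merged exon, so that genes of different length can be set side by side, Dusp1 (5.10 ± 1.29 CPM per kb, SD over the 10 libraries) and Jun (4.91 ± 0.745) led, and Dusp1 exceeded Jun in only 6 of 10 libraries. Nr4a1 (2.97 ± 0.914), Fos (2.81 ± 1.02) and Junb (2.48 ± 0.892) followed within 1 SD of each other. Ier2 (1.86 ± 0.298) and Egr1 (1.51 ± 0.645) came next, and Atf3 was at 0.813 ± 0.202. Egr3 (0.154 ± 0.0298) and Fosb (0.129 ± 0.0795) were lowest, and both lay under Atf3 in each of the 10 libraries. The step between Jun and Nr4a1 and the step between Egr1 and Atf3 likewise held in 10 of 10 libraries.

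The comparison of right with left eyes asked whether fellow eyes, of which 1 had worn a lens, differed in these genes. With fellow eyes matched within animals, limma called 0 of the 8 members and 0 of the 15414 genes (0%) at an adjusted p of 0.05. All 8 had a fitted difference below 0, whereas 54% of all genes tested had one. Levels of these 8 ran together over the 10 libraries (Pearson's r of up to 0.94, Dusp1 with Ier2), so they are not 8 separate observations. Nr4a1 was lower on the right in only 2 of 5 animals and turned positive without animal 64 (0.0018). Ier2 turned positive in 12 of its 23 alternatives (to at most 0.04, without animal 64). These 12 are not separate estimates, since leaving out either library of an animal gave the same difference as leaving out the animal. The omissions among them concern animals 64, 66 and 68. The median difference was -0.24 on the log2 scale over the 8 members and -0.01 over all genes. At an unadjusted p of 0.05 there were 430 genes in limma, of which 306 were lower on the right and 124 higher. Fos and Egr1 were the 2 members among the lower ones, beside 1.99% of all genes; the members with such a p numbered 5 without animal 65 and 0 without the animal block. Egr1 and Atf3 were lower on the right in 5 of 5 animals, beside 2.67% of all genes, and so was Fosb, which lies outside the genes tested there.

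**Figure D2:**
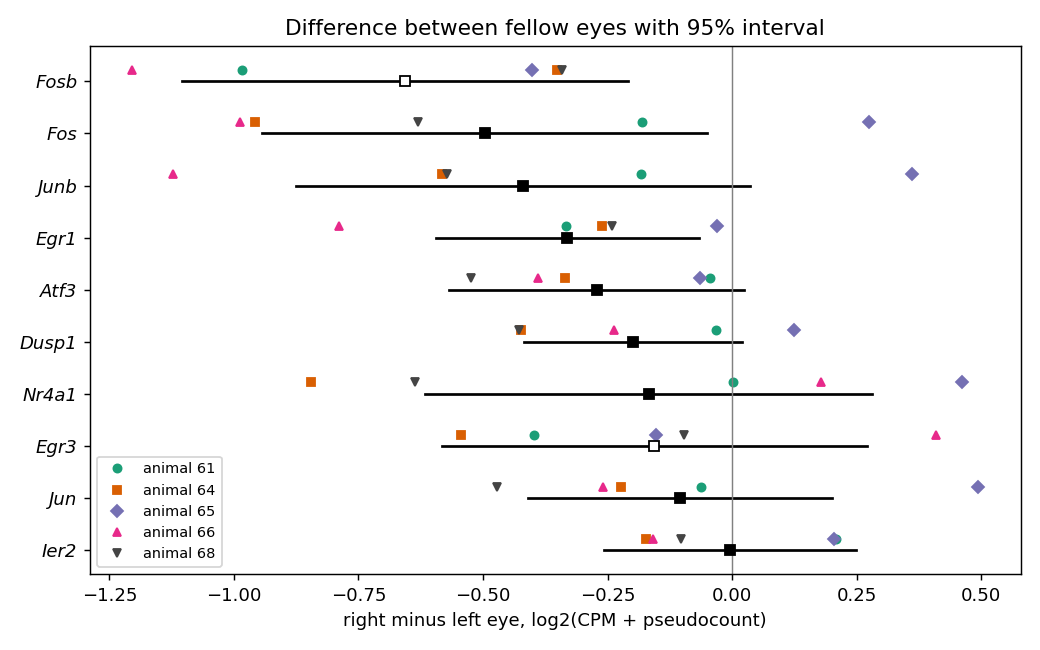
Right minus left difference of each member on the log2(CPM + pseudocount) scale. Squares and lines are the limma estimate and its 95% interval (open squares, fit with no filter), and coloured symbols above each line are the 5 animals. The estimates run from -0.66 (Fosb) to -0.0043 (Ier2), and the intervals of Fosb, Fos and Egr1 lie below 0 before adjustment.

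The direction was unequally shared by the animals. In animals 64 and 68 all 10 members were lower in the right eye, where 59.1% and 62.6% of all genes tested were lower. In animals 61 and 66, 8 of 10 were lower, beside 48.6% and 55.6% of all genes. In animal 65 only 4 of 10 were lower, beside 39.2% of all genes, and the median member was higher on the right by 0.16. Fosb and Egr3 are outside the genes tested. Of the 8 tested members, 6, 8, 2, 7 and 8 were lower in animals 61, 64, 65, 66 and 68. The median member difference was -0.12, -0.39, -0.32 and -0.45 in animals 61, 64, 66 and 68. Left eyes of 66 and 61 held the highest level of 6 members (Fosb, Jun, Junb and Atf3 in animal 66, Fos and Egr1 in animal 61), and the right eye of animal 65 that of Nr4a1, Ier2 and Dusp1. Over all genes tested, these 3 libraries held the highest value for 12.8%, 10.1% and 15.1%. The highest Egr3 value was in the left eye of animal 65.

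The right eye of animal 68 had the lowest of the 10 values for 8 of the 10 members, while it had the lowest value for 19.0% of all genes tested. Jun was lowest in the left eye of animal 65 and Egr3 in the right eye of animal 64. The right eye of animal 68 also held the highest summed level of the 10 rod photoreceptor markers, 1965 CPM, where the other libraries had 155 to 933 CPM. It had the lowest summed level of the marker lists for pigment cells, choroidal endothelium, smooth muscle with pericytes, leukocytes, and Schwann cells with myelin. Both eyes of animal 68 were the most deeply sequenced, at 94.0 M implied reads each. The part of these in the members' levels was not tested. Without the right-eye library of animal 68, which removes that animal from the paired comparison, the median difference of the 8 members was -0.18, against -0.24 with it.

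**Figure D3:**
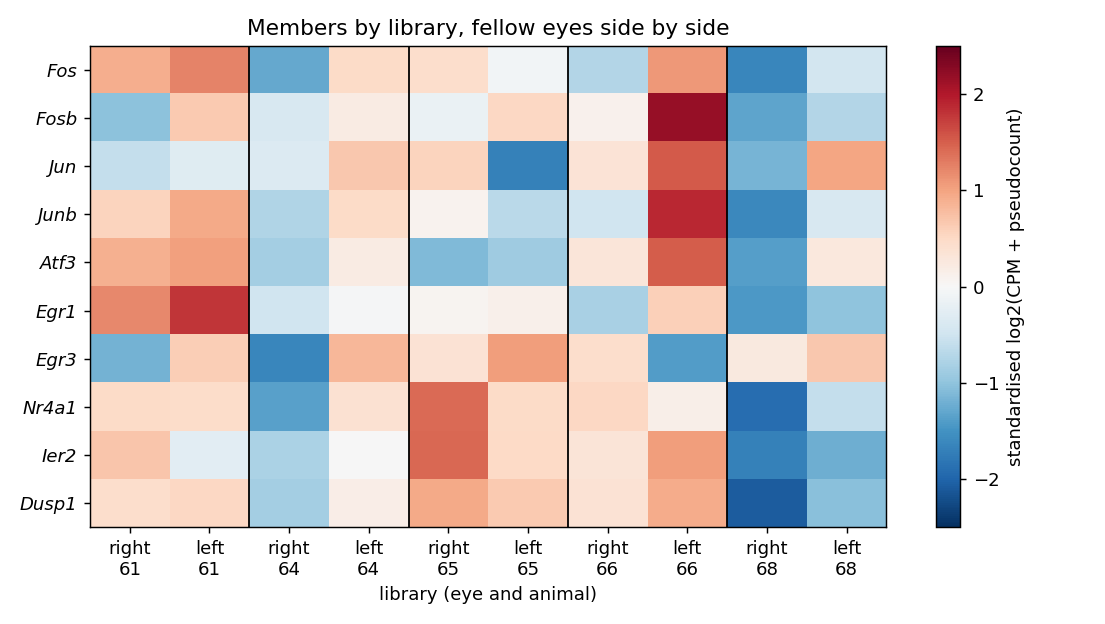
Members by library with the eyes of each animal side by side, the right eye first, coloured by the gene's log2 level standardised over the 10 libraries. The right eye of animal 68 is blue in all rows except Egr3, and the left eye of animal 66 is red in all rows except Egr3.

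Most members varied together, though not all to the same degree. Over the 10 libraries, which come in fellow pairs and are therefore not independent points, Pearson's r between 2 members had a median of 0.54 over the 45 pairs and ran from -0.29 (Egr3 with Junb) to 0.94 (Dusp1 with Ier2). The r was above 0 in 38 of the 45 pairs, and every pair below 0 held Egr3. Dusp1, Ier2 and Nr4a1 ran closely together (r of 0.87 to 0.94), and so did Fos with Junb (0.91) and with Egr1 (0.89), while Atf3 ran with Junb (0.84). Fos and Jun, which form AP-1 together, had an r of 0.34, and Egr1 and Jun one of 0.0047. Egr3, at few reads, had an r between -0.29 and 0.27 to the other 9. These r values describe the 10 libraries only.

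A second question was whether fellow eyes were closer to each other than eyes of different animals. Limma's F test over animals found 13 of 15414 genes past an adjusted p of 0.05 (0.0843%), none of them a member. Egr1 came nearest (F = 18.7, adjusted p = 0.235 in limma), followed by Dusp1 (F = 15.4, adjusted p = 0.317 in limma). Both values rested on single animals: for Egr1, F was 5.33 without animal 61 and 49.8 without animal 66 (adjusted p of 0.948 and 0.0674 in limma), and for Dusp1 it was 4.74 without animal 68 and 25.2 without animal 65. For Fos, F was 4.04 with all animals, 2.08 without animal 61 and 10.5 without animal 65. At an unadjusted p of 0.05 the count was 3 of 8 members (Egr1, Dusp1 and Fos), beside 7.22% of all genes. Animal 68 had the lowest animal mean for 7 of the 10 members, while it had the lowest mean for 28.0% of all genes. The highest animal mean belonged to animal 61 for 4 members, to animal 65 for 4 and to animal 66 for 2, beside 27.4%, 16.3% and 20.5% of all genes.

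The spread of the members between animals was wide. The SD of the 5 animal means had a median of 0.38 on the log2 scale over the 8 members and 0.11 over all genes tested. Egr1 had the widest, 0.54, and Jun the narrowest, 0.13. The residual SD between fellow eyes, once animal and side were taken out, had a median of 0.23 over the members and 0.14 over all genes. It was 0.39 for Nr4a1, 0.39 for Junb and 0.38 for Fos, above that of 92.0%, 91.9% and 91.6% of genes, and 0.14 for Ier2, above that of 48.4%. The standard error of the right minus left difference was accordingly larger for the members (median 0.13) than for all genes (median 0.09).

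**Figure D4:**
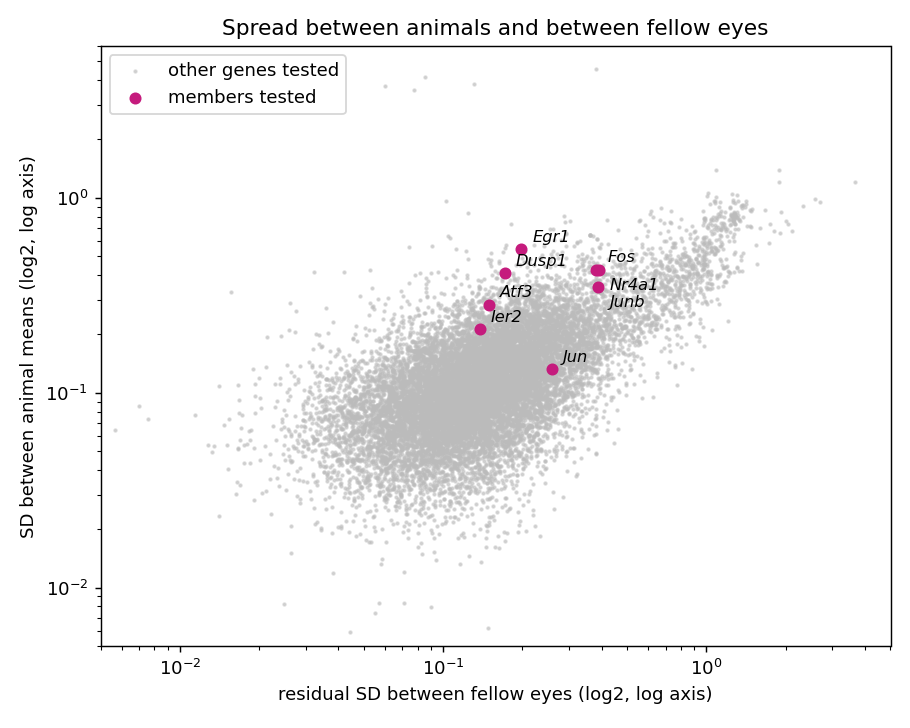
Spread between the 5 animal means against the residual spread between fellow eyes, both as SD on the log2 scale and on log axes, for the 15414 genes tested, of which the 8 members are coloured and the others grey. Egr1 and Dusp1 stand high for their residual SD, Jun lies low, and Fos, Junb and Nr4a1 lie to the right with a residual SD of 0.38 to 0.39.

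Other genes of the same response were read from lists written from general knowledge. Among other bZIP factors of the AP-1 and CREB/ATF families, 11 of the 13 in the file were tested, 0 passed in either direction, and 9 had a difference below 0 (median -0.06, against -0.01 over all genes). Fosl2, an AP-1 subunit that is induced later and lasts longer than Fos, was at 35.2 CPM in right and 40.0 CPM in left eyes, a log2 difference of -0.16 ± 0.11 (SE). Creb1 (57.8 and 55.2 CPM), the CRE-binding factor that is present before a stimulus, differed by 0.06 ± 0.04, Atf7 (54.5 and 55.0 CPM) by -0.02 ± 0.05 and Atf4 (40.1 and 38.3 CPM), a factor of the integrated stress response, by 0.07 ± 0.05, right eye first in each pair.

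Of 36 other immediate early and primary response genes in the file, 31 were tested and none passed the adjusted threshold. Of these, 23 had a difference below 0, with a median of -0.06. The most abundant were Ccn2 and Ccn1, matrix proteins that stretch and the YAP pathway induce, Mcl1, which protects against cell death, and Klf6, a zinc finger factor. Ccn2 was at 318 CPM in right and 305 CPM in left eyes (log2 difference 0.10 ± 0.09, SE), Ccn1 at 46.3 and 48.9 CPM (-0.11 ± 0.14), Mcl1 at 86.7 and 91.6 CPM (-0.08 ± 0.06) and Klf6 at 59.6 and 58.7 CPM (0.02 ± 0.07). In the F test over animals, 11 of the 31 had an unadjusted p under 0.05, beside 7.22% of all genes, and 0 passed after adjustment.

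Feedback inhibitors that act beside Dusp1 showed no common direction. Of 14 tested phosphatases, Sprouty and SPRED genes, 6 had a difference below 0 and none passed, with a median of 0.02. Dusp6, a MAP kinase phosphatase of the cytoplasm, was at 79.0 CPM in right and 75.2 CPM in left eyes (log2 difference 0.07 ± 0.07, SE). Dusp4, a nuclear relative of Dusp1, was at 45.3 and 39.2 CPM (0.20 ± 0.09), Dusp7 at 16.2 and 16.0 CPM (0.02 ± 0.07) and Spred1 at 62.0 and 62.1 CPM (-0.0022 ± 0.04).

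The factors upstream of the members, from the MAP kinases to the serum response factor, its ELK and MRTF partners and the CBP and p300 coactivators, were nearly level. None of the 19 passed, 11 had a difference below 0, and the median was -0.0018. Crebbp (86.1 CPM in both right and left eyes), Ep300 (66.5 and 67.0 CPM) and Elk4 (47.0 and 47.5 CPM) were among the most abundant, and the log2 differences of these 3 ran from -0.02 to -0.0018.

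The RNA came from whole tissue, in which fewer cells of a type and less RNA per cell cannot be told apart. All 10 markers of RPE, of choroidal endothelium and of fibroblasts were above 0 in every library, and so were all 10 markers of rods, of skeletal muscle and of surface epithelium. Surface epithelium markers summed to 183 to 788 CPM in right and 373 to 1046 CPM in left eyes, and were lower on the right in 4 of 5 animals. All 10 had a difference below 0, beside 54% of all genes, with a median of -1.01 and none past the threshold. In animals 64, 66 and 68, where 10, 8 and 10 of the 10 members were lower on the right, this sum was 421, 183 and 297 CPM in the right eyes, against 762, 1046 and 558 CPM in the left eyes. In animal 65, where 4 of 10 members were lower on the right, it was 197 CPM in the right and 687 CPM in the left eye. In animal 61, where 8 of 10 were lower, it was 788 CPM in the right and 373 CPM in the left eye. Skeletal muscle markers summed to 1134 to 2453 CPM in right and 720 to 3594 CPM in left eyes, rod markers to 155 to 1965 CPM and 237 to 933 CPM, and RPE markers to 5430 to 7089 CPM and 5213 to 5840 CPM. On the right, all 10 choroidal endothelium markers were higher (median 0.09). So were 8 of 9 tested for RPE (0.19) and 5 of 6 for erythrocytes (0.03). Lower there were 8 of 10 for skeletal muscle (-0.26), 7 of 10 for rods and 6 of 10 for smooth muscle with pericytes. Fibroblasts and leukocytes had 6 of 10 higher, Schwann cells and myelin 5 of 9, pigment cells 4 of 8 and adipocytes 2 of 4. None of these markers passed the threshold. Over the 10 libraries, which come in fellow pairs, the summed level of a marker list had an r to the mean standardised level of the members of 0.78 for pigment cells, 0.77 for Schwann cells and myelin, 0.55 for smooth muscle with pericytes, 0.44 for endothelium and 0.42 for leukocytes. It was 0.35 for erythrocytes, 0.31 for RPE and for surface epithelium, 0.05 for adipocytes and 0.0026 for fibroblasts, and it was -0.22 for skeletal muscle and -0.61 for rods. These r values may lean on 1 library. The right eye of animal 68 had the lowest mean standardised level of the members (-1.40). It also had the highest rod sum (1965 CPM) and the lowest pigment cell sum (3471 CPM). The r without this library was not computed. Among the lists of the response itself, the upstream factors had an r of 0.79 and the other AP-1 and CREB/ATF factors 0.58. The feedback inhibitors had 0.34 and the other immediate early genes 0.13. A summed level follows its most abundant genes. In right eyes Ccn2 averaged 318 CPM, where the other immediate early genes summed to 783 to 967 CPM. The part of these cell types in the differences of the members was not tested.

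By likeness of pattern, the 10 protein-coding genes that ran closest to the mean standardised level of the members over the 10 libraries were Mtss2 (r = 0.97), Wdr49 (0.94), Bcat2 (0.93), Prrc2a (0.93), Mmp3 (0.92), Pml (0.92), Atn1 (0.92), Arhgef1 (0.91), Afap1 (0.91) and Cep170b (0.91). The median r over the 15414 genes compared was 0.17. Mmp3, the secreted protease stromelysin-1, ran from 37.6 to 63.1 CPM in right and from 46.2 to 70.0 CPM in left eyes. Mtss2 ran from 11.5 to 16.5 CPM in right and from 13.8 to 17.4 CPM in left eyes. These are the highest of 15414 r values, over 10 points that include fellow eyes, and 203 genes exceeded 0.8.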

How the data were processed

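Per the submitters' processing notes, STAR and Partek were used with GRCm38 (mm10); their versions are not stated in those notes, nor is whether counting used strand. The values the authors deposited behave as CPM to which 0.0001 was added, and this was taken off. Implied depth, from the step between low values (89.1% to 90.0% whole within 0.05 of a step), was 66.8 to 94.0 M reads, of which the listed genes held 42.7% to 47.1%. Not all values came out whole, so no count test was run. Gene ends were taken as 1 below the deposited stop, which with the start equalled the reference annotation for 99.1% of 25737 matched names.

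Genes averaging 1 CPM or more were tested as log2(CPM + 0.230) in limma 3.58.1 (R 4.3.3) with animal and eye side as terms (4 residual degrees of freedom), Benjamini-Hochberg over all genes, after a check on simulated data. Fold changes on this scale understate those of low genes. The animal is a block because fellow eyes share an animal. The correlation of fellow eyes' deviations was over 0.1 in 2 of 5 animals. It was 0.27, 0.11, 0.05, -0.19 and -0.05 in animals 61, 64, 65, 66 and 68. No libraries were duplicates: chi-square over degrees of freedom was 14.7 to 82.2 in the 45 pairs. Members and lists were chosen with earlier results of these data known. Named genes were the members, the 4 most abundant of each related list with any that passed the threshold, and the 10 protein-coding genes nearest in pattern. A gene that this rule names is not reported here. Figures used matplotlib 3.10.9.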

Additional observations from a re-analysis of the deposited data

Results flagged for a closer look

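In left eyes, the lowest Egr3 value, 0.493 CPM in animal 66, stood apart from the other 4, of which the nearest was 0.757 CPM (the gap was 0.798 of the whole range, above the critical value of 0.71 for 5 samples). It corresponds to 33 implied reads. Of the 20 groups of 5 examined (10 members on 2 sides) this was the only 1, and chance alone marks about 1 in 20.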

How the results depend on the processing

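No gene passed in the right against left comparison under any of the 24 alternatives, and no member passed the F test over animals in any (smallest adjusted p = 0.0674 in limma, without animal 66). Without the replicate block the count was also 0, and the number of members below 0 stayed at 8. That number was 6 to 8 over the alternatives; with a filter of 5 CPM only 6 members remained to be tested. Ier2 turned positive in scaling by median of ratios (0.0059), with quantiles normalized (0.030) and with array weights (0.029), and ran from -0.057 to 0.038 with animals or libraries left out. Nr4a1 ran from -0.32 to 0.0018 and turned only without animal 64. Fos lay between -0.69 (without animal 65) and -0.37 (without animal 66), Junb between -0.61 and -0.24 under the same omissions, Jun between -0.25 (without animal 65) and -0.01 (without animal 68), Egr3 between -0.30 (without animal 66) and -0.06 (without animal 64), and Fosb between -0.80 and -0.38 with pseudocounts of 0.05 and 1 CPM. The number of genes that differed between animals was 13, against 20 with array weights, 7 with no intensity trend, 25 with no eye side term and 5 to 10 with 1 animal or library left out; the cause was not tested. Fosb and Egr3, with 30 to 138 reads, are limited by depth. The fit for them was chosen after their levels were seen. P-values measure differences against the spread between fellow eyes of these 5 animals, after the animal and the eye side were taken out.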

Other observations

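Stress genes outside the members were level or mixed between the eyes. Of 12 heat shock genes, 6 had a difference below 0 and none passed (median -0.02). The constitutive Hspa8 was at 466 CPM in right and 438 CPM in left eyes (log2 difference 0.09 ± 0.07, SE). Hsp90aa1, an abundant chaperone of kinases and steroid receptors, was at 225 CPM in right and 205 CPM in left eyes (0.14 ± 0.05) and was higher on the right in 5 of 5 animals, without passing the adjusted threshold. Hspa1a, an inducible HSP70 named after its values were seen, went the other way (-0.24 ± 0.08, lower on the right in 4 of 5 animals), with reads that its near-identical copy Hspa1b can share. Hsp90aa1 and Hspa1a were the 2 of the 12 with an unadjusted p under 0.05 in limma, beside 430 of all 15414 genes tested. Among 12 glucocorticoid-responsive genes were 2 of the 13 genes that passed the F test over animals (0.0843% of all genes tested). These were Zbtb16 (F = 72.9, adjusted p = 0.0118 in limma) and Fkbp5 (F = 43.4, adjusted p = 0.0448 in limma). In that test 10 of the 12 had an unadjusted p under 0.05, beside 7.22% of all genes. The list was chosen with earlier results of these data known, so these counts are not a test of it. Zbtb16 was at 28.8 CPM in right and 31.3 CPM in left eyes and Fkbp5 at 23.3 and 25.5 CPM. The summed level of this list had an r of -0.34 to the mean standardised level of the members over the 10 libraries, which come in fellow pairs, and that of the heat shock genes one of -0.0013. Most of the other genes past that test were sex-linked, such as Ddx3y and Xist. In that test, a difference of sex between animals cannot be told apart from any other difference between them.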
